A study of Mus musculus with 13 samples.

Results

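The 10 genes followed here encode the chaperones of the endoplasmic reticulum (ER) and the Xbp1 branch that controls them: the chaperones Hspa5 and Hsp90b1, the cochaperones Dnajb9, Dnajc3 and Sdf2l1, the disulfide isomerases Pdia4 and Pdia6, the degradation factor Herpud1, and the transcription factors Xbp1 and Bhlha15. They were found as the non-control probes whose gene name in the array files was one of these symbols or a synonym. This gave 20 of 41174 probes, and all 10 genes were among the 17642 genes tested. Bhlha15 carries its older name Bhlhb8 in the files.

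The arrays measured RNA of mouse mammary organoids, pieces of epithelium released from glands or tumors by enzymatic digestion with collagenase and trypsin. The groups compared were tumor organoids in collagen I (mice A, B and C), tumor organoids in Matrigel (A, B and C), normal organoids in collagen I (A, B and C) and normal organoids in Matrigel (A, B and D), with 1 array per mouse and 3 mice per group. Normal organoids came from mammary glands of FVB mice (age not stated in the labels). Tumor organoids came from the largest tumor of each MMTV-PyMT mouse, harvested at 12 to 16 weeks, in which the mouse mammary tumor virus promoter drives the polyoma middle T oncogene in mammary epithelium. Matrigel is a laminin-rich basement membrane gel, and the collagen I was from rat tail at 3 mg/ml. Every group received 2.5 nM FGF2 and was harvested on day 4. A letter shared by the gels of a tissue is the same mouse, so the 12 arrays represent 7 mice.

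Proteins entering the secretory pathway are folded in the ER by Hspa5 (BiP), an Hsp70, and Hsp90b1 (GRP94), an Hsp90. When unfolded proteins build up, the sensor Ire1 splices Xbp1 mRNA, and the resulting factor, together with Atf6, raises chaperone, isomerase and degradation genes. Xbp1 is known for its role in highly secretory cells, the lactating mammary gland among them, and Bhlha15 (Mist1) is a factor of secretory cells that acts downstream of it.

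The promoter motif through which Atf6 and Xbp1 act on chaperone genes, the ER stress response element (ERSE), can be read in the sequences of several of these genes. RefSeq promoter windows (GRCm38.p6, 250 bases before to 50 after each start) were available for all 10. On both strands, ERSE (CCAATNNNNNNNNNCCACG) was found in 4 of the 10 windows and in 0.119% of all 32851 windows, and ERSE-II (ATTGG, any base, then CCACG) in 1 of the 10 and in 0.0365% of all. The core of the unfolded protein response element (TGACGTGG) was in none of the 10 and in 0.676% of all windows, and the amino acid response motif TGATGNAAT in none and in 0.965% of all. No match overlapped another. The stretches that hold a match are shown because they belong both to genes called in the comparisons and to genes not called, with the match in capitals and 30 bases on either side, each read along the gene's own strand.
Hspa5 (chr2:34771995-34772073, plus strand): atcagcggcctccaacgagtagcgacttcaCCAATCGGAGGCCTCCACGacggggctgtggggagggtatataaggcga
Hsp90b1 (chr10:86705503-86705686, minus strand): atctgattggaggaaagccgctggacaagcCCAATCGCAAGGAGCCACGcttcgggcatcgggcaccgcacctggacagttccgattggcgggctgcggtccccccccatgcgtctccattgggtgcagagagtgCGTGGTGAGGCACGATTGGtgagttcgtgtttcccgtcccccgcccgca
Pdia6 (chr12:17266461-17266539, plus strand): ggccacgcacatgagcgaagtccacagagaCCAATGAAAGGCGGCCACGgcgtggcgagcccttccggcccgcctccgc
Dnajc3 (chr14:118937797-118937875, plus strand): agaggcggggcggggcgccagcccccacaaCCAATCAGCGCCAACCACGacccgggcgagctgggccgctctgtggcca
Herpud1 (chr8:94386347-94386417, plus strand): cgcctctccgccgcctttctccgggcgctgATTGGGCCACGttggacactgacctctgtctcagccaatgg
The Hsp90b1 window holds 2 matches, the second on the opposite strand. The windows of Pdia4, Dnajb9, Sdf2l1, Xbp1 and Bhlha15 held no full match. A match is a description of the letters in these windows and not evidence of binding.

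Levels are given as log2 of the processed signal over the 75th percentile of the array, so that 0 is the 75th percentile. The percentile itself was 737 ± 65.4 (SD, n = 3) in tumor collagen I, 463 ± 96.3 in tumor Matrigel, 1076 ± 126 in normal collagen I and 956 ± 247 in normal Matrigel, and the tumor Matrigel arrays were thus the dimmest. The median spike-in control spot lay between -1.94 and -1.47 relative to the percentile on tumor collagen I arrays, between -0.32 and 0.36 on tumor Matrigel arrays and between -2.28 and -1.52 on the normal arrays. Relative to the spike-ins, the whole array was therefore brighter in tumor collagen I than in tumor Matrigel, the spike-in difference being -1.69. It was dimmer in tumor Matrigel than in normal Matrigel, the spike-in difference being 1.94. Every change below is a change relative to the other genes of the array. The 20 probes of the 10 genes were well above background on all 12 arrays and none was saturated. Luminal epithelial markers were present in every group, with a summed signal of 654 to 834 times the percentile in tumor collagen I, 1107 to 1634 in tumor Matrigel, 612 to 721 in normal collagen I and 639 to 894 in normal Matrigel.

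In tumor organoids, 7 of the 10 genes were lower in collagen I than in Matrigel and none was higher. Bhlha15 differed by 11.3-fold, Herpud1, Sdf2l1, Xbp1 and Pdia6 by between 2.06- and 2.53-fold, and Hspa5 and Pdia4 by 1.62- and 1.54-fold. The test was limma's moderated test with a Benjamini-Hochberg adjusted p under 0.05. Of all genes tested, 12.3% were called lower in this comparison and 27.5% were called in either direction. For the 7 genes called, no tumor collagen I array reached the lowest tumor Matrigel array, as was so for 19% of all genes. The median log2 difference of the 10 genes was -0.87, beside -0.059 over all genes, and it was -0.52 with quantile normalization, -0.49 with normexp background correction and quantile normalization, and -0.50 with the authors' deposited values. With normexp alone it was -0.60, beside -0.32 over all genes. Over all genes 2686 were called higher and 2165 lower, but 486 higher and 753 lower with normexp. Luminal epithelial markers moved the same way, with 3 of 8 called lower, none higher and a median of -0.67, and their part in the result was not tested. The plot of levels by array shows all tumor Matrigel arrays above the 3 other groups for 6 of the 10 genes.

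**Figure D1:**
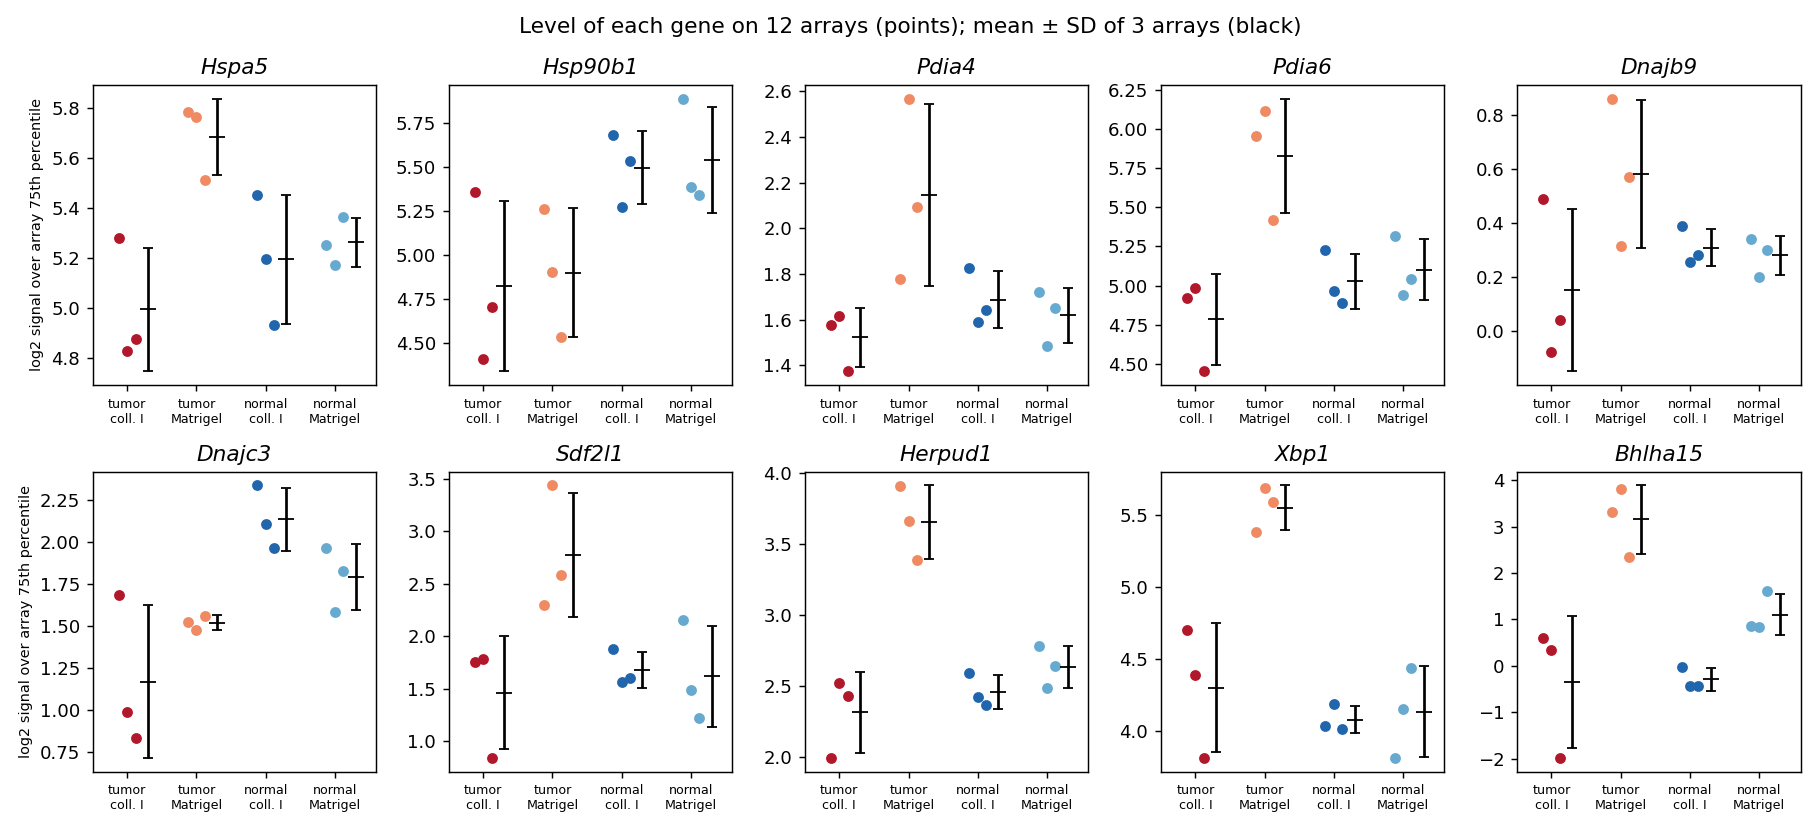
Level of each of the 10 genes (y axis, log2 signal over the 75th percentile of the array) on the 12 arrays, by group from left to right tumor collagen I, tumor Matrigel, normal collagen I and normal Matrigel. Points are arrays in the order of the mouse letter, black marks the mean ± SD of 3 arrays, and each panel has its own scale. The 3 tumor Matrigel arrays are the highest for Hspa5, Pdia6, Sdf2l1, Herpud1, Xbp1 and Bhlha15, while Hsp90b1 and Dnajc3 are highest on normal arrays.

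Bhlha15, the secretory cell transcription factor, lay at 0.61, 0.34 and -1.98 on the tumor collagen I arrays of mice A, B and C, against 3.30, 3.80 and 2.35 on the tumor Matrigel arrays. The array of mouse C was the lowest in each gel, and the groups did not overlap. The log2 difference was -3.50 ± 0.61 (SE, adjusted p = 0.00369), and it ranked 11th from the lowest of 17642 genes. The call was lost under 1 of 25 alternatives, the slide as a fixed block (-2.97, adjusted p = 0.0811). The 3 mice gave -2.70, -3.46 and -4.34 (A, B and C). A second Bhlha15 probe gave -1.28 ± 0.42 (adjusted p = 0.0424).

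Xbp1 lay at 4.71, 4.39 and 3.82 on the tumor collagen I arrays of mice A, B and C, against 5.38, 5.69 and 5.59 on the tumor Matrigel arrays. The tumor Matrigel arrays were close to each other and all above the tumor collagen I arrays. The log2 difference was -1.25 ± 0.24 (adjusted p = 0.00555). The call was lost under 2 of 25 alternatives, the authors' deposited values (-0.82, adjusted p = 0.0527) and the slide as a fixed block (-1.26, adjusted p = 0.0702). Xbp1 was read by a single probe, so the spliced and unspliced forms of its mRNA were not measured separately. That probe lies on the plus strand at chr11:5476970-5477029 in the mm7 coordinates of the array files, and is shown because every Xbp1 value rests on it.
Xbp1 probe: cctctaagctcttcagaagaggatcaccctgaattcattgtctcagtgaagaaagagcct

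Among the targets of this branch, Herpud1, which brings ER proteins to the degradation machinery, lay at 1.99, 2.52 and 2.43 on the tumor collagen I arrays, against 3.91, 3.66 and 3.39 on the tumor Matrigel arrays (mice A, B and C). The groups were separated by more than the range within either of them, and the log2 difference was -1.34 ± 0.20 (adjusted p = 0.00209). Herpud1 was the one gene of the 10 called under all 25 alternative settings in this comparison, with log2 differences from -1.47 to -1.02 and adjusted p from 0.000887 to 0.0354. Its window is the one with ERSE-II.

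Differences were smaller for the main chaperones. Hspa5 lay at 5.28, 4.83 and 4.87 in tumor collagen I, against 5.78, 5.77 and 5.51 in tumor Matrigel, and the log2 difference was -0.69 ± 0.19 (adjusted p = 0.0222). The arrays did not overlap, but the call was lost under 10 of 25 alternatives, among them quantile normalization, which gave -0.22 (adjusted p = 0.424), and the authors' deposited values, which gave -0.21 (adjusted p = 0.473). Hsp90b1, the other main chaperone, lay at 5.36, 4.41 and 4.70 in tumor collagen I and 5.26, 4.90 and 4.53 in tumor Matrigel. These arrays overlapped throughout, the log2 difference was -0.077 ± 0.28 (adjusted p = 0.859, 95% interval -0.69 to 0.54), and its sign turned with the scaling (0.32 under quantile normalization). Of these 2 chaperone genes, both with ERSE in their windows, only Hspa5 was called, and the difference between them was not tested.

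Sdf2l1, an ER resident partner of the J-domain cochaperones, lay at 1.76, 1.79 and 0.84 in tumor collagen I, against 2.30, 3.44 and 2.59 in tumor Matrigel. The lowest tumor Matrigel array was above the highest tumor collagen I array, and the log2 difference was -1.31 ± 0.36 (adjusted p = 0.0217). The call was lost under 5 of 25 alternatives, among them leaving out tumor Matrigel mouse B (adjusted p = 0.0821) or tumor collagen I mouse C (adjusted p = 0.0687). The cochaperones Dnajb9 (ERdj4) and Dnajc3 (p58IPK), which stimulate the ATPase of Hspa5, were not called. Dnajb9 lay at 0.49, -0.077 and 0.040 in tumor collagen I and 0.86, 0.31 and 0.57 in tumor Matrigel, with a log2 difference of -0.43 ± 0.19 (adjusted p = 0.122). Dnajc3 lay at 1.69, 0.99 and 0.83 in tumor collagen I and 1.53, 1.47 and 1.56 in tumor Matrigel, with a log2 difference of -0.35 ± 0.23 (adjusted p = 0.269). Both sets of arrays overlapped. For Dnajc3 only the tumor collagen I array of mouse A was above the tumor Matrigel arrays.

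Pdia6, a disulfide isomerase that works with Hspa5, lay at 4.92, 4.99 and 4.45 in tumor collagen I, against 5.96, 6.11 and 5.42 in tumor Matrigel. Mouse C was the lowest in each gel, and the log2 difference was -1.04 ± 0.23 (adjusted p = 0.0089). The call was lost under 4 of 25 alternatives, and the difference was -0.60 with quantile normalization and -0.58 with the authors' deposited values, both still called. Pdia4 (ERp72) lay at 1.58, 1.62 and 1.37 in tumor collagen I, against 1.78, 2.57 and 2.09 in tumor Matrigel. Its log2 difference was the smallest of those called, -0.62 ± 0.20 (adjusted p = 0.0424), and it was lost under 18 of 25 alternatives. With the mouse as a fixed replicate block, which pairs the gels, it had an adjusted p of 0.0799, and the count of the 10 genes called fell to 6.

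The count of 7 itself moved with the setting. It was 3 with normexp background correction, 4 with the authors' deposited values, 3 when only the tumor arrays were fitted and 1 (Herpud1) with the slide as a fixed block. It was 4 without tumor Matrigel mouse B and 4 without tumor collagen I mouse C. All these calls were lower, as was every gene called in the other settings of this comparison.

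Within slide 8, which held a tumor collagen I and a tumor Matrigel array of different mice, 8 of the 10 genes were lower in tumor collagen I, with a median of -0.51 beside 0.0089 over all genes. Within mice, 8, 10 and 9 of the 10 were lower for mice A, B and C. Their medians were -0.52, -1.04 and -0.84, beside -0.017, 0.011 and -0.073 over all genes. These are the same arrays as in the group comparison.

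**Figure D2:**
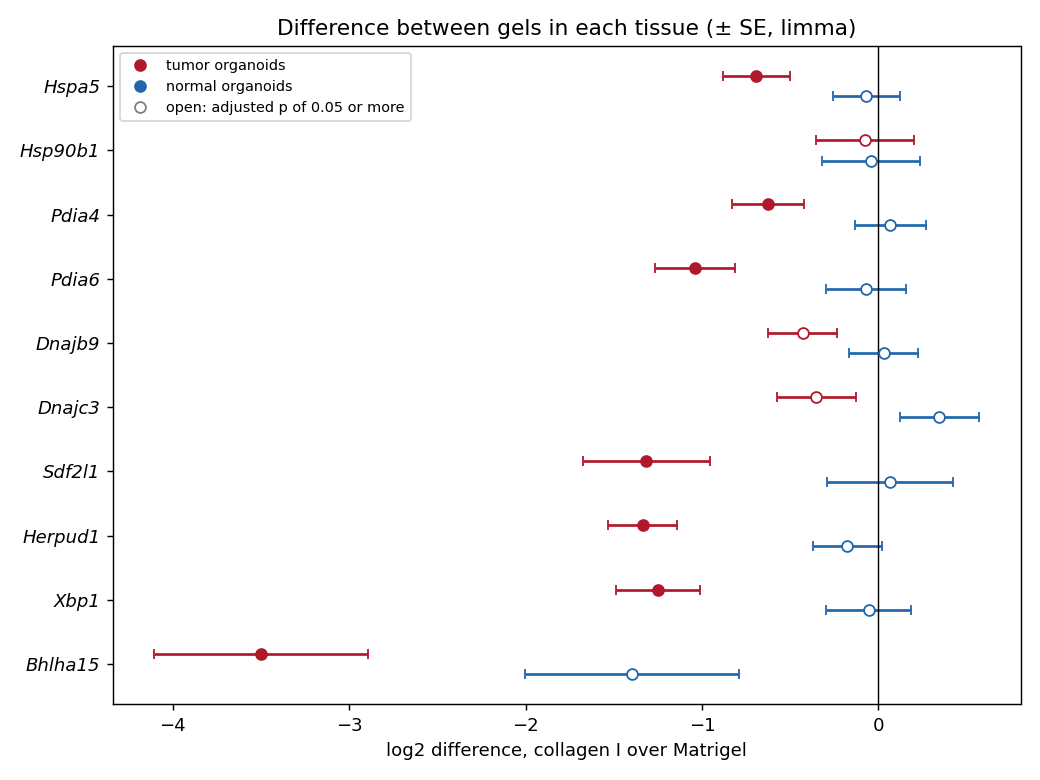
Log2 difference between collagen I and Matrigel (x axis) in tumor and in normal organoids for the 10 genes, with bars of 1 standard error from limma. Filled points passed an adjusted p of 0.05. The 7 filled points, all of tumor organoids, lie between -3.50 and -0.62, and no gene of normal organoids passed.

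Several genes had more than 1 probe, and these did not all give the same answer. Dnajb9, not called by its brightest probe, was called lower by another (-0.71 ± 0.18, adjusted p = 0.0171), and not by the third (-0.28 ± 0.23, adjusted p = 0.394). For Pdia6, 3 of 4 probes were called lower (-1.04, -0.68 and -0.65), while the remaining probe was called higher by 0.97 ± 0.27 (adjusted p = 0.0236). It is assigned in the files to an mRNA record other than the RefSeq transcript of the 3 others. With all 4 averaged, Pdia6 stood at -0.35 (adjusted p = 0.131). One of the probes called lower, that at -0.68, and the probe called higher are shown because they disagree within a gene. Both lie on the plus strand of chromosome 12 in mm7, and what is annotated at the second position was not analysed here.
Pdia6 probe called lower (chr12:17319454-17319513): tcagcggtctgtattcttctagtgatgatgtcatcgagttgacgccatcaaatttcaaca
Pdia6 probe called higher (chr12:17331366-17331425): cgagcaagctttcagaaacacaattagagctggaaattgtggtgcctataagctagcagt

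**Figure D3:**
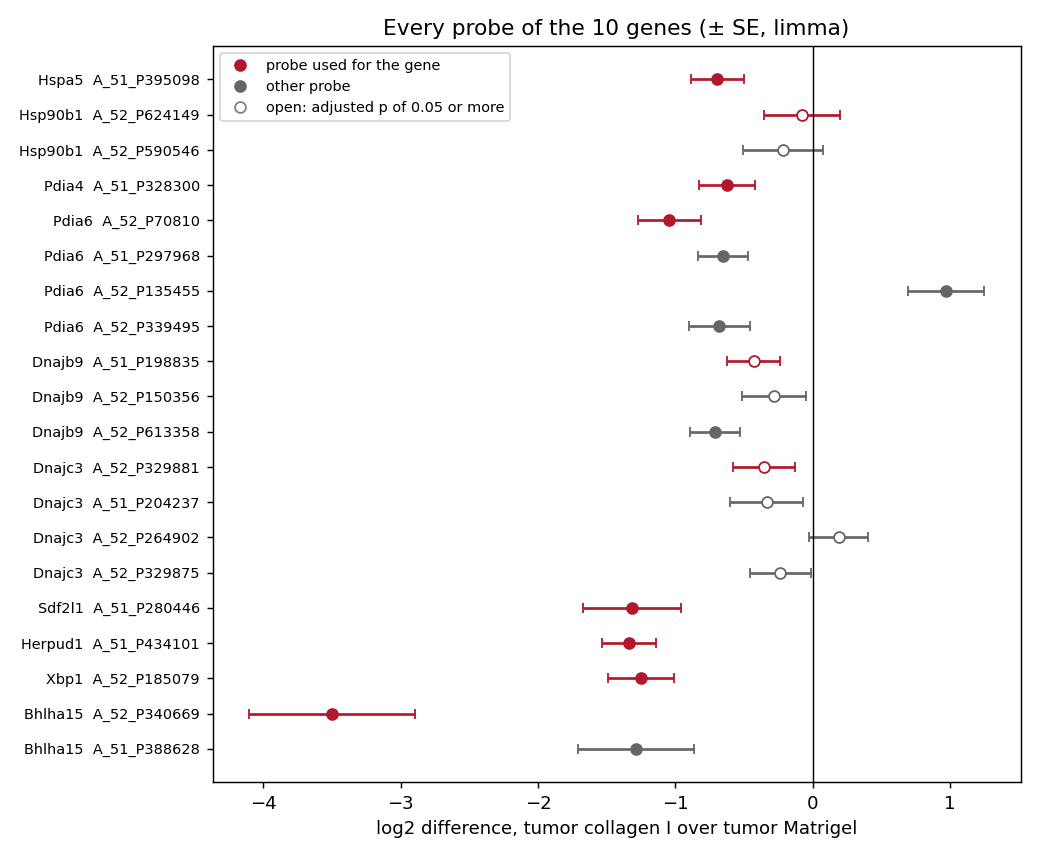
Log2 difference of every probe of the 10 genes between tumor collagen I and tumor Matrigel (x axis), with standard errors. Red marks the brightest probe, which stands for the gene, grey the others, and filled points passed an adjusted p of 0.05. The lone filled point right of 0 is the Pdia6 probe at 0.97.

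In normal organoids, none of the 10 genes was called between collagen I and Matrigel, and neither were most others: 7 of 17642 genes (0.0397%) passed with limma, and 1594 had an unadjusted p under 0.05. Of the 10 genes only Bhlha15 had an unadjusted p under 0.05. It lay at -0.015, -0.43 and -0.43 in normal collagen I (mice A, B and C), against 0.85, 0.84 and 1.62 in normal Matrigel (A, B and D). These arrays did not overlap, the log2 difference was -1.39 ± 0.61 (adjusted p = 0.528), and both mice with the 2 gels showed it (-0.87 and -1.27). Dnajc3 was the one other gene without overlap, on the opposite side, at 2.34, 2.11 and 1.97 in normal collagen I and 1.97, 1.58 and 1.83 in normal Matrigel. Its log2 difference was 0.35 ± 0.23 (adjusted p = 0.74). Non-overlap in either direction held for 21.5% of all genes. The other 8 genes had differences from -0.18 (Herpud1) to 0.068 (Pdia4), with a median over the 10 of -0.049 beside -0.0081 over all genes.

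The test of whether the gel mattered more in tumor than in normal organoids called none of the 10 genes, beside 2.78% of all genes, although 7 had an unadjusted p under 0.05. All 10 differences of the gel effects were negative. Those with the smallest adjusted p were Herpud1 at -1.16 ± 0.28 (adjusted p = 0.0525) and Xbp1 at -1.19 ± 0.34 (adjusted p = 0.0738). With the mouse as a random replicate block both passed (adjusted p = 0.0287 for Herpud1 and 0.0405 for Xbp1), and with it as a fixed block neither did. Bhlha15 had the largest difference, -2.10 ± 0.86, with an adjusted p of 0.156. The gel effect in tumor organoids is not shown to differ from that in normal organoids for these genes.

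Tumor organoids in Matrigel were higher than normal organoids in Matrigel for 6 of the 10 genes, at a background of 26.2% of all genes called higher and 51.5% called in either direction. Xbp1, at 5.38, 5.69 and 5.59 in tumor Matrigel and 3.81, 4.16 and 4.44 in normal Matrigel, differed by 1.42 ± 0.24 (adjusted p = 0.000963). Herpud1 differed by 1.02 ± 0.20 (adjusted p = 0.0019) and Sdf2l1 by 1.16 ± 0.36 (adjusted p = 0.0199). The other genes called were Bhlha15 (2.05 ± 0.61, adjusted p = 0.0163), Pdia6 (0.73 ± 0.23, adjusted p = 0.0206) and Pdia4 (0.53 ± 0.20, adjusted p = 0.0494). The spike-in controls differed by 1.94 between these groups, more than any of these 6 genes except Bhlha15. Levels relative to the spike-ins were not tested. Of 24 alternatives, the call was lost under 17 for Pdia4, 11 for Pdia6, 6 for Sdf2l1, 3 for Bhlha15, 1 for Xbp1 and 0 for Herpud1. Pdia6 stood at 0.047 with quantile normalization (adjusted p = 0.83), 0.018 with normexp and quantile normalization, 0.078 with the authors' deposited values and 0.20 with its probes averaged. The arrays of these 6 genes did not overlap, nor did those of Hspa5, and 30% of all genes stood apart in this way. The 10 genes had a median of 0.63 beside 0.099 over all genes. It was 0.26 with quantile normalization, 0.25 with normexp and quantile normalization and 0.24 with the authors' deposited values. With normexp alone the order turned, to 0.36 for the 10 genes beside 0.43 over all genes, and the split of all calls moved to 6786 higher and 2068 lower, beside 4614 higher and 4473 lower with the percentile scaling.

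Neither main chaperone was called in this comparison. Hspa5 lay at 5.78, 5.77 and 5.51 in tumor Matrigel and 5.25, 5.17 and 5.37 in normal Matrigel (0.42 ± 0.19, adjusted p = 0.083), and its sign turned under quantile normalization (-0.27) and the authors' deposited values (-0.24). Hsp90b1 lay at 5.26, 4.90 and 4.53 in tumor Matrigel and 5.89, 5.39 and 5.34 in normal Matrigel. Its difference was -0.64 ± 0.28 (adjusted p = 0.077), opposite in sign to the 6 genes called, and it passed as lower under quantile normalization (-1.27, adjusted p = 0.0038), normexp (-1.02, adjusted p = 0.0188) and the authors' deposited values (-1.26, adjusted p = 0.00436). The count of 6 higher fell to 3 with quantile normalization, with normexp and quantile normalization and with the authors' deposited values, where Pdia4, Pdia6 and Sdf2l1 were lost. Hsp90b1 was called lower in all 3 of these settings, and Dnajc3 in the last 2. The count also fell to 3 with the slide as a fixed block and without normal Matrigel mouse D, and to 2 without normal Matrigel mouse B or without tumor Matrigel mouse B. Cell type markers differed here too, with 5 of 8 luminal markers higher and none lower in tumor Matrigel (median 0.88). Fibroblast markers were lower for 8 of 8 (median -2.88) and endothelial markers for 5 of 6 (median -4.62). Among the endothelial ones, Tie1 and Tek were well above background on no tumor Matrigel array, and Pecam1 and Cdh5 on 2 each. These passed the filter only through normal groups, so the size of the endothelial difference rests partly on values near background. The part of the marker differences in the result was not tested. Within slide 3, 8 of the 10 genes were higher in tumor Matrigel, with a median of 0.97 beside 0.22 over all genes.

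Between the tissues in collagen I, 9 of the 10 genes were not called. Dnajc3 alone was called, and it was lower in tumor organoids, at 1.69, 0.99 and 0.83 in tumor collagen I against 2.34, 2.11 and 1.97 in normal collagen I. The log2 difference was -0.97 ± 0.23 (adjusted p = 0.0227), at a background of 5.11% of all genes called lower and 8.89% in either direction. The call was lost without either of tumor collagen I mice B and C, without any of the 3 normal collagen I mice, when only the collagen I arrays were fitted and with the slide as a fixed block. Xbp1 stood at 0.22 ± 0.24 and Bhlha15 at -0.055 ± 0.61, with 95% intervals of -0.31 to 0.75 and -1.39 to 1.28. For Bhlha15 the tumor collagen I arrays, from -1.98 to 0.61, enclosed the range of the normal collagen I arrays. Of the 10 differences 9 were negative, with a median of -0.18 beside 0.052 over all genes. Within slide 5, 9 of the 10 genes were lower in tumor collagen I, with a median of -0.45 beside 0.037 over all genes.

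The Dnajc3 probes did not give one value between the tissues. The probe nearest the 3′ end by its mm7 position gave -1.44 ± 0.22 in collagen I (adjusted p = 0.00218) and -1.57 ± 0.22 in Matrigel (adjusted p = 0.000335). The 3 other probes gave -0.97, -0.78 and -0.44 in collagen I and -0.27, -0.28 and -0.17 in Matrigel, of which the first alone was called. That first probe, which stands for the gene, had no overlap between the tissues in Matrigel either, its tumor arrays all lying below. In Matrigel the gene was called lower with normexp and quantile normalization (-0.49, adjusted p = 0.0437), with the authors' deposited values (-0.57, adjusted p = 0.0386) and with its probes averaged (-0.57, adjusted p = 0.0332). The probe that stands for the gene spans 1620 bases at chr14:113377399-113379018 (plus strand, mm7), so its 60 bases are not contiguous in the genome.
Dnajc3 probe used: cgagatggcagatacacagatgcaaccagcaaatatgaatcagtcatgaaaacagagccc

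**Figure D4:**
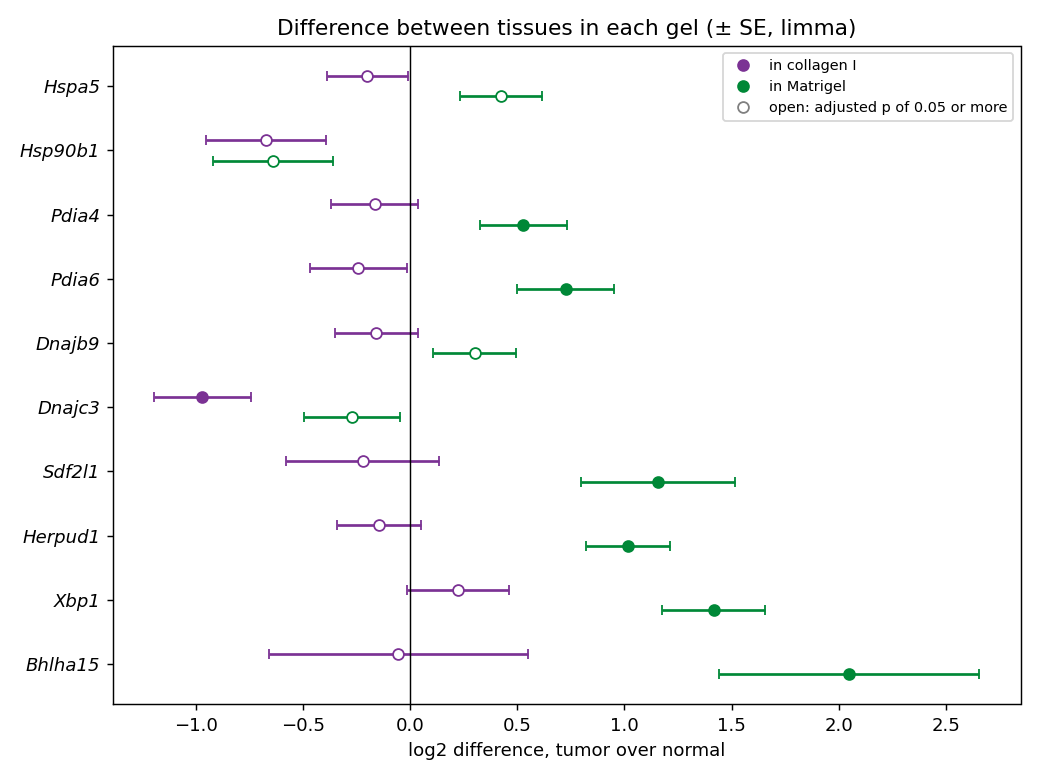
Log2 difference between tumor and normal organoids (x axis) in collagen I and in Matrigel for the 10 genes, with bars of 1 standard error from limma. Filled points passed an adjusted p of 0.05. In Matrigel 6 genes are filled and right of 0, from 0.53 to 2.05, and in collagen I the only filled point is Dnajc3 at -0.97.

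Across the 12 arrays the 10 genes were not one block. Each gene was centred and averaged with the others, and Pearson's r with this mean, to which each gene contributes, was 0.97 for Pdia6, 0.95 for Bhlha15 and 0.93 for Hspa5, but 0.22 for Dnajc3 and 0.043 for Hsp90b1. The mean profile lay at -0.11, -0.37 and -0.81 in tumor collagen I (mice A, B and C), at 0.66, 0.83 and 0.41 in tumor Matrigel, at -0.0059, -0.23 and -0.27 in normal collagen I and at 0.062, -0.17 and -0.0013 in normal Matrigel (A, B and D). Of all other genes, the 8 most like it over the 12 arrays, which share their groups, were Echs1, Tspan1, Pck2, Rpl35a, LOC624596, Fem1a, Rsph3a and Aqp5, with r from 0.95 to 0.98. Between tumor collagen I and tumor Matrigel these 8 differed by -2.63 (Tspan1) to -0.58 (Rsph3a). Pck2, the mitochondrial phosphoenolpyruvate carboxykinase, differed by -1.80 ± 0.19, and Aqp5, a water channel of secretory epithelia, by -2.53 ± 0.29. The genes were chosen on the same arrays for following the mean profile, so a difference between these groups followed from the choice.

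The wider secretory pathway, stress response factors and chaperones outside the ER were read through 11 lists that exclude the 10 genes. Beside them stand the 12.3% of all genes called lower and the 27.5% called in either direction. The list results come from the fit reported and were not recomputed under the alternatives. Under these, calls over all genes in this comparison ran from 1239 to 6091. In tumor organoids the PERK and integrated stress response factors had the highest share of calls, with 11 of 12 lower in collagen I, none higher, and a median of -1.22. Trib3, a pseudokinase induced in that response, differed by -2.59 ± 0.19 (adjusted p = 0.000205), Ddit3 (CHOP) by -3.23 ± 0.26 (adjusted p = 0.000224), and Atf4, the translation-controlled factor at its centre, by -1.33 ± 0.19 (adjusted p = 0.00189). In Matrigel all 12 were higher in tumor than in normal organoids, with a median of 1.78. Their difference of gel effects passed for 6 of 12, and for 0 of the 10 genes followed here.

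Among ER folding factors, 4 of 10 Hsp70 and Hsp90 cochaperones were lower in tumor collagen I and 2 were higher, with a median of -0.34. Sil1, a nucleotide exchange factor of Hspa5, lay at 4.53, 4.74 and 4.77 in tumor collagen I against 6.23, 6.61 and 6.11 in tumor Matrigel (-1.63 ± 0.18, adjusted p = 0.000972), and Hyou1, another, differed by -1.38 ± 0.23 (adjusted p = 0.00304). Dnajc10, an ER disulfide reductase with a J domain, was higher (0.77 ± 0.21, adjusted p = 0.0206). Of 23 disulfide and proline isomerases 9 were lower and 2 higher, with a median of -0.49. They included Fkbp11 (-2.03 ± 0.23, adjusted p = 0.000972) and the oxidase Ero1a (-2.82 ± 0.44, adjusted p = 0.0026). For Sil1, Hyou1 and Fkbp11 the difference of the gel effects passed too (adjusted p = 0.0226, 0.0462 and 0.0149).

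In quality control and degradation, 7 of 10 lectin chaperone and glycoprotein genes were lower and 1 higher (median -0.71), and 6 of 25 ER-associated degradation genes were lower and 1 higher (median -0.32), a share called in either direction close to that of all genes. Derl3, a derlin of the retrotranslocation machinery, differed by -3.10 ± 0.39 (adjusted p = 0.00139), Sel1l, the partner of the ligase Hrd1, by -0.69 ± 0.16 (adjusted p = 0.0113), and Syvn1, which is Hrd1 itself, by -0.67 ± 0.18 (adjusted p = 0.0198). Uggt2, a homologue of the folding sensor Uggt1, was the higher gene of the first list (1.92 ± 0.32, adjusted p = 0.00335).

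For entry and export, 5 of 22 translocon and signal recognition genes were lower and 3 higher (median -0.34), 4 of 10 oligosaccharyltransferase genes were lower and none higher (median -0.56), and 9 of 27 ER to Golgi genes were lower and 1 higher (median -0.55). The oligosaccharyltransferase subunits Ddost, Rpn1 and Rpn2 differed by -1.01 ± 0.20, -0.86 ± 0.21 and -0.95 ± 0.24. Of 13 sensors and regulators of the unfolded protein response 4 were lower and none higher (median -0.20), Atf6 among them (-0.75 ± 0.16, adjusted p = 0.00896). Of 5 tested Bhlha15 targets of secretory cells 2 were lower, namely Rab3d, a GTPase of secretory granules (-1.29 ± 0.23, adjusted p = 0.00383), and Copz2 (-0.92 ± 0.23, adjusted p = 0.0151).

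Chaperones outside the ER were mixed, with 5 of 18 cytosolic and mitochondrial chaperones lower and 3 higher (median -0.32). Hsp90aa1, the inducible cytosolic Hsp90, was higher in tumor collagen I by 1.37 ± 0.25 (adjusted p = 0.00421), and the J-domain protein Dnaja1 by 1.06 ± 0.24 (adjusted p = 0.00997). In normal organoids no gene of the 11 lists was called between the gels. Between the tissues in collagen I, the lists held 6 genes called higher and 2 called lower. Over all genes, 8.89% were called in either direction. The higher ones were 3 of 23 isomerases, 1 of 22 translocon, 1 of 12 stress response and 1 of 5 Bhlha15 target genes. The 2 lower ones were isomerases too, and the other lists held no call. Ero1a was higher in tumor organoids by 2.23 ± 0.44 (adjusted p = 0.0101).

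**Figure D5:**
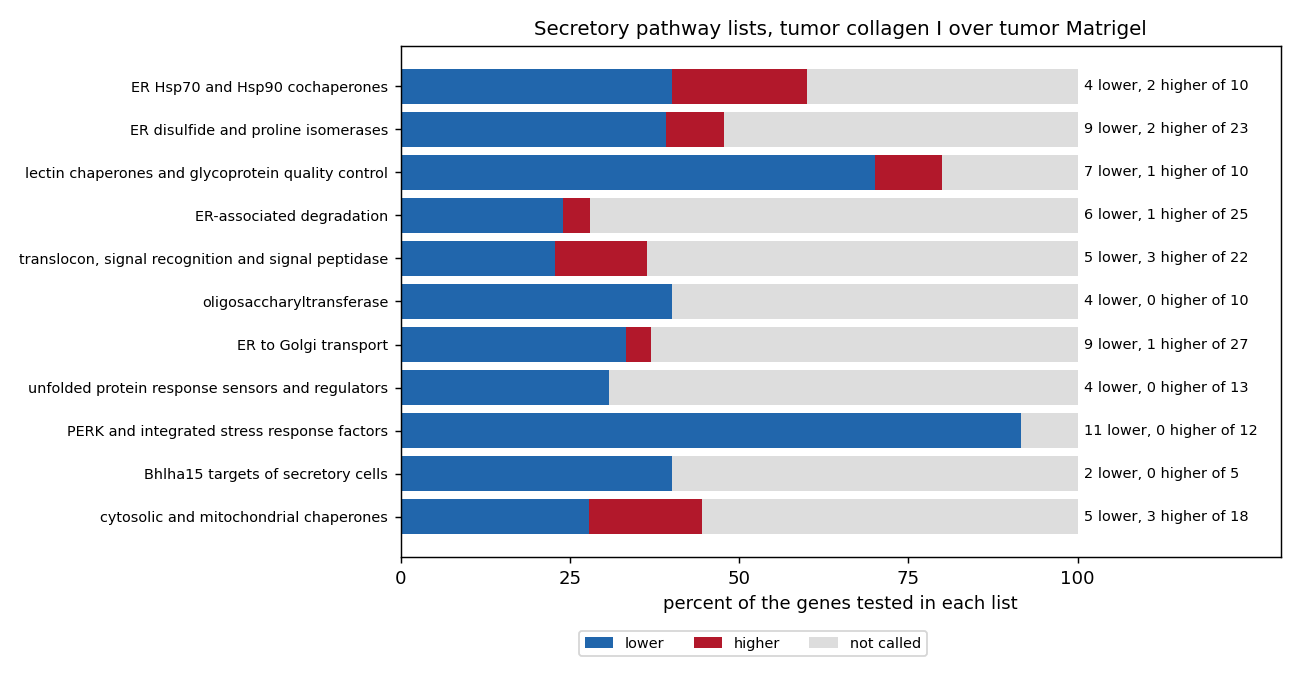
Share of the tested genes of 11 lists that were lower, higher or not called (x axis, percent) in tumor collagen I over tumor Matrigel, with the counts at the right. The lists cover the secretory pathway, stress response factors and chaperones outside the ER. The stress response list has 11 of 12 genes lower, and the lists of ER folding and export hold calls in both directions except the oligosaccharyltransferase list.

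Some markers of other cells that could carry much ER moved between the groups. Plasma cells, which are rich in ER, express Xbp1 highly, and the summed signal of 10 plasma and B cell markers was 1.46 to 1.77 times the percentile in the tumor collagen I arrays, 5.76 to 8.43 in tumor Matrigel, 4.65 to 5.68 in normal collagen I and 9.41 to 15.6 in normal Matrigel. The largest contributor was Pou2af1, whose mean log2 level was -0.38 in tumor collagen I and 2.70 in tumor Matrigel, and which was the 1 of 7 tested markers called lower. The median difference of the 7 between these groups was -0.044, and 4 of 7 were negative. Of them, Irf4 and Cd79b were well above background on no tumor array, and Cd79a on 1 in Matrigel and 2 in collagen I. These passed the filter only through normal groups, so their differences between the tumor groups lie near background and say little. Prdm1 lay at -1.69 in tumor collagen I and -2.53 in tumor Matrigel. Jchain and Tnfrsf17, which mark plasma cells, were not well above background on any array. Endothelial markers summed to between 0.0979 and 0.167 in tumor collagen I, 0.24 to 0.522 in tumor Matrigel, 3.29 to 6.38 in normal collagen I and 6.36 to 8.47 in normal Matrigel, with 2 of 6 called lower in tumor collagen I over tumor Matrigel. Several were kept through the normal groups and lay near background in tumor organoids. Tie1 was well above background on no tumor array, Tek on 1, and Pecam1 and Cdh5 on 2 in Matrigel and 1 in collagen I. Fibroblast markers, 1 of 8 of them called higher, summed to between 5.98 and 10.9 in tumor collagen I, 4.36 to 5.66 in tumor Matrigel, 31.2 to 74.9 in normal collagen I and 19.4 to 127 in normal Matrigel. Of the leukocyte, basal epithelial and milk markers, 1 of 8 was called lower, 1 of 7 higher and 0 of 6 either way. The part of the plasma and B cell, endothelial and fibroblast marker differences in the results was not tested. In bulk organoids, fewer cells of a type and less RNA per cell cannot be told apart.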

How the data were processed

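RNA from 13 samples was read on 14 1-colour Agilent arrays with linear amplification of a low RNA input and Cy3 label, as the labels' protocols state. The deposited intensity of each spot is the processed signal of Agilent Feature Extraction, version 9.5 per the file headers and 9.1 per the submitters' processing notes. A matrix of log2 values that the authors deposited followed the log2 intensity of their arrays at r from 0.992 to 1.00, with column medians of 5.92 to 5.98 and an unstated centring, and served as an alternative. The column of normal Matrigel mouse B averages 2 arrays of the same RNA, per the labels.

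The 12 arrays of batch 2 were compared, and the 2 of batch 1 entered an alternative only. For the 2 arrays of normal Matrigel mouse B the batch was inferred: the array on a slide shared with batch 2 samples was taken as batch 2. From each log2 intensity the array's log2 75th percentile was subtracted, outlier-flagged and control spots were dropped, and a probe's spots were averaged. A probe was kept if all arrays of some group had it well above background and each group had 2 or more values (26604 of 41174). The brightest kept probe stood for a gene. limma 3.58.1 (in R 4.3.3) was fitted to the 4 group means (residual df 8), with Benjamini-Hochberg adjustment over 17642 genes and a threshold of 0.05. An exact permutation test of 3 arrays against 3 cannot go below 0.10. The fit was tested on simulated data.

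The members, the lists and the alternatives were chosen with earlier results of these data known. Named are all 10 genes, of each list up to 4 called genes with the smallest adjusted p (up to 2 outside the tumor gel comparison), and the 8 genes most like the mean profile. Some genes named by this rule were left out for length. Gene names came from RefSeq (GRCm38.p6) for 79.5% of probes and otherwise from the files, and probe positions are the files' (mm7). Letters pair the gels by mouse, per the labels. The correlation across genes of the deviations of same-mouse arrays was mixed in sign, in tumor mice (A -0.061, B 0.328, C 0.423) and in normal mice (A 0.23, B -0.249). Figures were drawn with matplotlib 3.10.9.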

Additional observations from a re-analysis of the deposited data

Results flagged for a closer look

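For 4 of the 10 genes, the gel effect ran in opposite directions in every same-mouse pair of the 2 tissues: lower in collagen I in all 3 tumor mice and higher in both normal mice that had the 2 gels. The tumor minus normal difference of the gel effects was -0.46 for Dnajb9, -0.62 for Hspa5, -0.69 for Pdia4 and -1.19 for Xbp1. The limma test of this difference did not pass for any of them, with adjusted p of 0.313, 0.173, 0.161 and 0.0738. The same-mouse normal differences were small, from 0.026 to 0.22, and the share of all genes with this pattern was not counted. Between the normal group means, which also hold mice with 1 gel only, the sign was not the same for all 4. There the gel difference was 0.029 for Dnajb9, 0.068 for Pdia4, -0.069 for Hspa5 and -0.056 for Xbp1.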

How the results depend on the processing

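Leaving out single arrays, the 10 genes gave 4 to 7 calls for the gels in tumor organoids, 0 to 0 in normal organoids, 2 to 6 between the tissues in Matrigel, 0 to 1 in collagen I and 0 to 1 for the difference of gel effects. For the gels in tumor organoids, calls numbered 3 with normexp, 4 with the authors' deposited values, 1 with the slide as a fixed block and 3 with only the groups compared. Between the tissues in Matrigel they numbered 3 with the slide as a fixed block, and the 6 higher calls fell to 3 with quantile normalization, normexp and quantile, or the authors' values, offset by 1, 2 and 2 lower calls. Between the tissues in collagen I they numbered 2 with normexp and quantile normalization, 0 with the slide as a fixed block and 0 with only the groups compared. For the difference of gel effects they numbered 1 when probes had to be well above background on all 12 arrays, 2 with batch 1 averaged in, 2 with the mouse as a random replicate block and 2 with the slide as a random block. The cause of these changes was not tested. Some settings had fewer arrays or degrees of freedom. In the paired fit (fixed replicate block), 6, 0 and 0 genes were called for the gels in tumor, in normal and for their difference.

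Over all genes, calls ranged from 1239 to 6091 for the gels in tumor organoids (4851 in the fit reported), 0 to 84 in normal organoids (7), 7134 to 12275 between the tissues in Matrigel (9087), 191 to 1885 in collagen I (1569) and 0 to 2087 for the difference (491). Among recomputed values of single genes 53 changed sign, none of them called on either side. For the gels in tumor organoids Hsp90b1 gave 0.32 with quantile normalization, 0.18 with normexp, 0.31 with both, 0.36 with the authors' values, 0.592 and 0.0015 with slide as a fixed and a random block, and -0.34 to 0.13 without single arrays. For the difference of gel effects Hsp90b1 gave 0.37, 0.22, 0.34 and 0.35 with those 4 scalings, 0.084 with the fixed replicate block, 0.29 with slide fixed, and -0.30 to 0.17 without single arrays. For the gels in normal organoids the authors' values gave 0.0062 for Hsp90b1 and 0.042 for Xbp1, averaging probes gave 0.069 for Hsp90b1 and 0.089 for Pdia6, batch 1 gave -0.010 for Dnajb9, the fixed replicate block gave 0.11 for Hspa5, -0.097 for Sdf2l1 and 0.13 for Xbp1, slide fixed gave 0.302 for Hsp90b1 and 0.15 for Pdia6, and slide random gave 0.0039 for Hsp90b1. Without single arrays these values ran from -0.20 to 0.062 for Hspa5, -0.14 to 0.13 for Hsp90b1, -0.0018 to 0.12 for Pdia4, -0.17 to 0.035 for Pdia6, -0.012 to 0.059 for Dnajb9, -0.14 to 0.33 for Sdf2l1 and -0.22 to 0.096 for Xbp1. Between the tissues in Matrigel, Hspa5 gave -0.27 with quantile normalization, -0.27 with normexp and quantile, and -0.24 with the authors' values, and Dnajb9 -0.0017 with slide fixed. In collagen I, Xbp1 gave -0.062 with normexp and quantile and -0.0020 with slide fixed, and Bhlha15 0.089 with probes averaged. Without single arrays Sdf2l1 ran from -0.39 to 0.089, Herpud1 from -0.25 to 0.017 and Bhlha15 from -0.53 to 0.76.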
